A study of Mus musculus with 30 samples.

Results

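RNA of 17 of 30 lymphoma cell lines was compared in 2 sets, a Resistance Group 1 of 9 libraries and a Resistance Group 2 of 8 libraries. All lines came from the Eµ-Myc; p19ARF-/- line, a mouse B-cell lymphoma in which Myc is driven by an immunoglobulin enhancer and p19ARF, a protein that restrains Mdm2, is absent, so every library compared here shares these alleles. Lines were grown in separate wells through repeated cycles of paclitaxel followed by recovery without drug, or of the solvent DMSO, and each line gave 1 library, so that the libraries of a group are separate lines and no line was sequenced in replicate. The study sorted its paclitaxel resistant lines by how they answered other drugs, with mixed sensitivity and resistance in Group 1 and broad cross-resistance in Group 2. The deposited labels give the treatment of a line and not its group.

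Which libraries belong to which group rests on a hypothesis. Libraries are named here by their deposited titles. The hypothesis is that, from the library titled DMSO 12 on, each library holds the line of the next label, a reading that came from setting fold changes of these libraries beside the differential genes that the study published. Group 1 is then Pac A6, B2, C1, E2, G9, H1, H3, H4 and H8, and Group 2 is DMSO 12 and Pac C3, C11, D4, D7, D10, E1 and F10. Under this reading the library titled DMSO 12 is a paclitaxel resistant line, and 11 libraries, DMSO 1 to DMSO 11, are the DMSO control. Pac H9 and Parental were put in no group. The shift itself was not tested here. Since fold changes between these same 17 libraries chose the groups, the fold changes over 9 against 8 libraries are given as a description, with no p-value for a gene. The same model's threshold serves only to pick genes to describe.

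Of the 17 libraries, 11 are in the same group whether the titles are taken as deposited or moved by 1 label, namely Pac B2, C1, H1, H3, H4 and H8 in Group 1 and Pac C11, D4, D7, D10 and E1 in Group 2. These 6 against 5 libraries were tested. Leaving the other libraries out of that test is a choice that came with the hypothesis. The other 6, Pac A6, E2 and G9 in Group 1 and DMSO 12, Pac C3 and Pac F10 in Group 2, change group under the moved labels. They share no library with the 6 against 5, and their values are given beside it.

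Paclitaxel binds the tubulin beta subunit, stabilises microtubules and holds cells in mitosis, and cells can escape it by pumping the drug out through Abcb1, by changing which tubulins they make or by raising the threshold for cell death. In B lymphocytes, death after damage runs largely through p53, which induces Bax, a protein that permeabilises the mitochondrial membrane, and Cdkn1a, the cell cycle inhibitor p21. B-cell identity is set by Pax5 and Ebf1 and read out through the pre-B and B-cell receptors and surface proteins such as CD20 and CD37.

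Each library was a 3′-end count library, with totals of 480919 to 6682169 counts in Group 1 and 989719 to 4602674 in Group 2, and the medians were 2640319 and 3728092.5. The totals did not differ between the groups beyond their spread (two-sided exact permutation test, p = 0.963 for 9 against 8 and p = 0.429 for 6 against 5). The 8 markers of B lineage summed to 3340 to 9709 CPM (counts scaled to a TMM-normalized library total) in Group 1, 3475 to 7543 in Group 2 and 4705 to 8803 in DMSO control lines. Of other cell types, the 8 T-cell markers summed to at most 23.3 CPM, the 8 myeloid markers to at most 58.5 CPM and the 6 fibroblast markers to at most 0.524 CPM in any library of the 3 sets. The 6 erythroid markers summed to at most 252 CPM in Group 1, 40.6 in Group 2 and 72.8 in the controls, nearly all Hbb-bt (described below). On the first principal component of log2 CPM, 6 of the 17 libraries stood apart, Pac A6 and G9 of Group 1 and Pac C11, D4, D7 and F10 of Group 2, at 39.3 to 91.4, where the other 11 lay at -20.9 to -4.84. Of the DMSO control lines, DMSO 11 lay with them at 46.8. In the 6 against 5 comparison these are 3 of 5 Group 2 libraries and 0 of 6 Group 1 libraries. Each library is bulk RNA, so fewer cells with a transcript and less of it per cell cannot be told apart.

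The 6 against 5 test called 6 of 11437 genes (0.0525%) at an adjusted p under 0.01 (edgeR's quasi-likelihood test, Benjamini-Hochberg adjustment over all genes), and all 6 were higher in Group 1. Described here are Dglucy, Cysltr1, Hbb-bt, 2700033N17Rik and Bst1. At 0.05 the same test called 94 genes (0.822%), 47 higher (0.411%) and 47 lower (0.411%) in Group 1. Without Pac D10 the count of 6 was 23, without Pac C11 it was 11, and with the 11 libraries fitted alone it was 2. In that last fit, of these 6, Hbb-bt stayed under 0.01 and the other 5 had adjusted p of 0.0116 to 0.0282 (edgeR). Without the libraries that stood apart on the first principal component, the comparison was 6 against 2 and called 19 genes. All 6 genes were then still higher in Group 1 by value, 2 under 0.01 and 3 under 0.05. The median gene lay at a log2 fold change of -0.14 in this comparison, -0.10 in the 9 against 8 and -0.03 in the 3 against 3, so values below are read against these shifts.

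Bst1 (ENSMUSG00000029082.17, chr5:43818885-43843986) encodes CD157, a surface enzyme first found on bone marrow stromal cells and carried by early B cells. In the 6 Group 1 libraries it ran from 12.95 CPM through a median of 31.5 to 66.4 CPM. In the 5 Group 2 libraries it was 2.46 in Pac C11, 2.30 in D4, 6.52 in D7, 9.40 in D10 and 1.42 CPM in E1. The groups did not overlap, as was the case for 2.01% of all genes tested, and the log2 fold change was 3.20 ± 0.575 (SE), with an adjusted p of 0.00920 by edgeR's quasi-likelihood test. In the libraries that change group, Bst1 was 99.3, 36.7 and 31.8 CPM in Pac A6, E2 and G9 and 4.08, 3.42 and 10.9 CPM in DMSO 12, Pac C3 and Pac F10. The labels of these 6 libraries were moved against a published table that holds Bst1 and Dglucy, so their values there restate that choice. The same choice left these 6 libraries out of the 6 against 5, so the adjusted p of Bst1 and Dglucy is not independent of it. DMSO control lines ran from 7.15 through 30.8 to 65.0 CPM, so that most of Group 2 lay below the lowest control line and Group 1 lay among and above the controls. Bst1 was under 0.01 in 4 of the 11 fits that each left out 1 library and under 0.05 in all 11, with a highest adjusted p of 0.0298, and after thinning every library to the smallest total its adjusted p was 0.0280 (edgeR).

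Dglucy (ENSMUSG00000021185.16, chr12:100779057-100896981) encodes D-glutamate cyclase, a mitochondrial enzyme that converts D-glutamate. It ran from 6.25 through 27.1 to 43.2 CPM in the 6 Group 1 libraries. In Group 2 it was 1.51 in Pac C11, 0.837 in D4, 5.16 in D7, 1.04 in D10 and 1.89 CPM in E1. The log2 fold change was 3.54 ± 0.523 (SE) with an adjusted p of 0.000991 (edgeR quasi-likelihood test). In the libraries that change group Dglucy was 20.7, 38.3 and 97.5 CPM in Pac A6, E2 and G9 and 11.7, 9.41 and 1.65 CPM in DMSO 12, Pac C3 and Pac F10. DMSO control lines lay between 17.1 and 34.9 CPM, above all 8 Group 2 libraries, while over the 9 Group 1 libraries the lowest value, 6.25 CPM in Pac C1, lay below 2 values of Group 2.

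Cysltr1 (ENSMUSG00000052821.3, chrX:106574346-106603679), a leukocyte receptor for cysteinyl leukotrienes, was also lower in Group 2. It ran from 121 through 134 to 211 CPM in the 6 Group 1 libraries and was 22.1, 36.0, 39.4, 57.5 and 65.9 CPM in Pac C11, D4, D7, D10 and E1 (log2 fold change 1.81 ± 0.267 SE, adjusted p = 0.000991, edgeR). In the libraries that change group the ranges overlapped, with 53.6, 72.5 and 46.4 CPM in Pac A6, E2 and G9 against 59.2, 29.9 and 23.8 CPM in DMSO 12, Pac C3 and Pac F10. All 17 libraries except those of Pac H4 and H8 were below the median of the DMSO control lines, 189 CPM.

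Hbb-bt (chr7:103812524-103813996), an adult beta-globin gene, ran from 31.3 through 111 to 252 CPM in the 6 Group 1 libraries. In Group 2 it was 6.62, 8.37, 10.0, 7.31 and 4.25 CPM in Pac C11, D4, D7, D10 and E1, and in the DMSO control lines it ran from 6.92 through 34.8 to 72.8 CPM. The log2 fold change was 4.14 ± 0.634 (SE) with an adjusted p of 0.00111 (edgeR). The libraries that change group overlapped, with 10.3, 101.5 and 59.5 CPM in Pac A6, E2 and G9 against 23.5, 12.0 and 40.6 CPM in DMSO 12, Pac C3 and Pac F10. Of the 6 erythroid markers, Hbb-bt was the only one that passed the filter on low counts. The summed list ran from 10.7 to 252 CPM in Group 1 and from 4.49 to 40.6 CPM in Group 2, nearly all of it Hbb-bt. Reads of Hbb-bt and its near-identical copy Hbb-bs can be split in counting, so the value for each copy is uncertain. 2700033N17Rik (chr2:116066218-116067444) was a low transcript of 4.55 to 16.8 CPM in the 6 Group 1 libraries and 1.04 to 1.88 CPM in the 5 Group 2 libraries (log2 fold change 2.73 ± 0.422 SE, adjusted p = 0.00111, edgeR). In the libraries that change group it was 8.53 to 11.9 CPM in Group 1 and 5.61 to 7.70 CPM in Group 2.

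**Figure D1:**
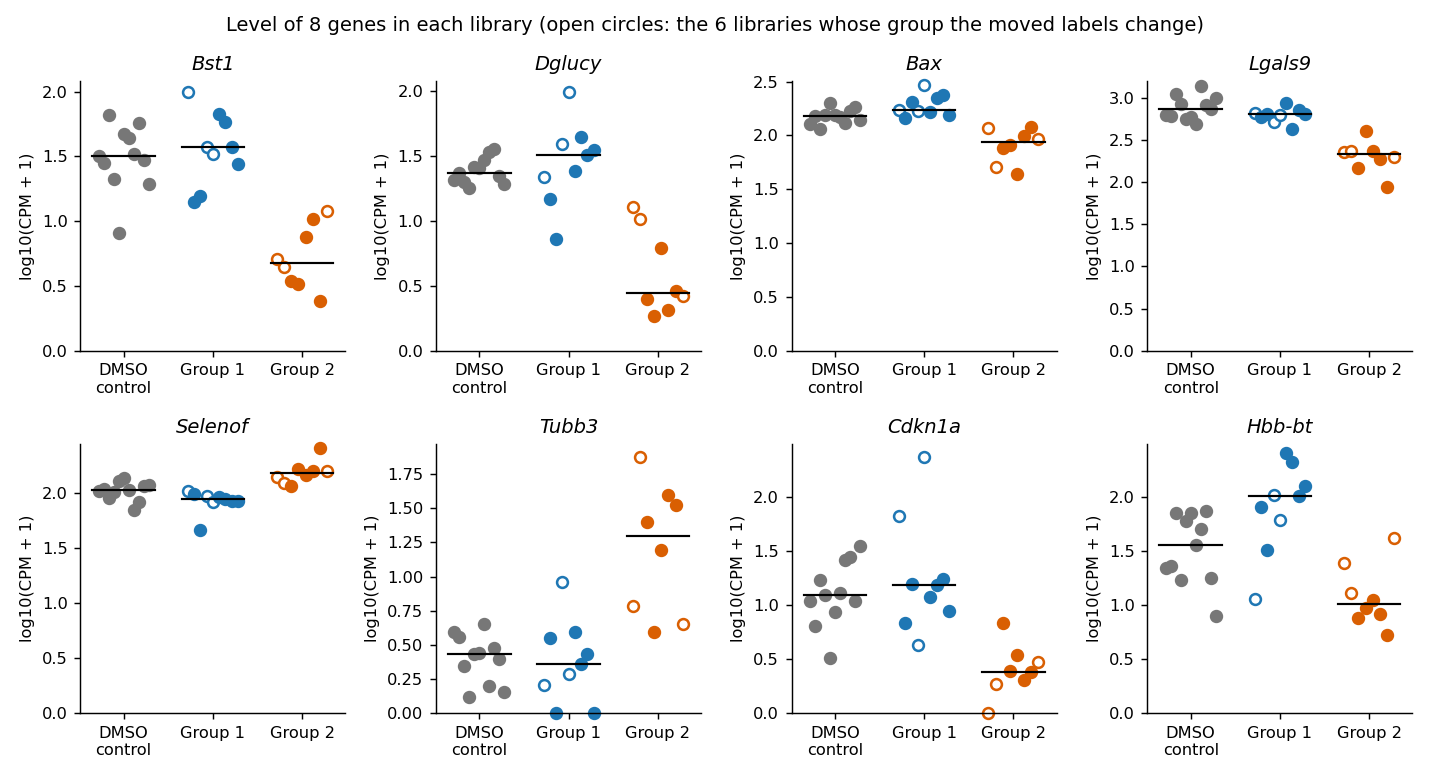
Expression of 8 genes in each library, as log10 of CPM plus 1, for the DMSO control (11 libraries), Group 1 (9) and Group 2 (8). Open circles are the 6 libraries that change group under the moved labels and black lines are medians. Bst1, Bax and Lgals9 of Group 2 lie below every Group 1 library, Selenof lies above, and Tubb3 is spread from 2.93 to 74.4 CPM in Group 2.

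The comparison of all 9 against 8 libraries, on whose values the groups were chosen, had 31 of 10032 genes (0.309%) at an adjusted p under 0.01, 20 higher (0.199%) and 11 lower (0.110%) in Group 1. At 0.05 there were 131 (1.31%), 72 higher and 59 lower. Leaving out 1 library moved the count of 31 to between 16 and 63, the highest without DMSO 12, and fitting the 17 libraries without the DMSO control gave 2. Without the 6 libraries apart on the first principal component there were 36, 12 of them higher in Group 1. Since the same values chose the groups, the 31 genes serve here to pick genes for description, and counts of list members among them are read as nothing more. By the deposited titles the same edgeR test called 0 genes at 0.01 or 0.05, with 905 at an unadjusted p under 0.05. Of the 31 genes, 4 were also among the 6 called in the 6 against 5, Dglucy, Bst1, Cysltr1 and Hbb-bt, and 24 had an adjusted p under 0.05 there. All 31 had the same sign in the 6 against 5 and the 3 against 3, which the choice of libraries fixes in part.

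Of the 31, 6 had ranges that did not overlap over all 17 libraries, against 0.0997% of all genes tested. These were Bst1, Bax, Lgals9, Bfsp2 and Pdcl, higher in Group 1, and Selenof, lower. Lgals9 (chr11:78962974-78984946), which encodes the sugar-binding protein galectin-9, ran from 429.7 through 636 to 856 CPM in Group 1 and from 87.0 through 214 to 399 CPM in Group 2, while the DMSO control lines ran from 492 through 735 to 1377 CPM. In the 6 against 5 test its log2 fold change was 1.58 ± 0.296 (SE), with an adjusted p of 0.0111 (edgeR). Bfsp2 (chr9:103424924-103480420), a beaded filament protein best known from the eye lens, ran from 7.21 through 18.9 to 57.2 CPM in Group 1 and from 0 through 2.64 to 5.13 CPM in Group 2, against 10.9 to 53.8 CPM in the controls. Pdcl, which encodes a phosducin-like chaperone partner for G protein beta subunits, ran from 52.3 through 62.7 to 143 CPM in Group 1 and from 16.7 through 29.7 to 49.1 CPM in Group 2, with the control lines at 43.5 to 57.2 CPM. Selenof (chr3:144570304-144597680), a selenoprotein of the endoplasmic reticulum, ran from 45.9 through 87.2 to 104 CPM in Group 1 and from 116 through 152 to 259 CPM in Group 2 (6 against 5: log2 fold change -1.06 ± 0.204 SE, adjusted p = 0.0111, edgeR).

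Set against the DMSO control lines, the genes higher in Group 1 were mostly genes that Group 2 had less of. Of these 20, 17 were lower in Group 2 than in the controls at an adjusted p under 0.01 and 0 were higher in Group 1 than in the controls. Group 2 differed from the controls at 4.79% of all genes and Group 1 at 2.00%. Of the 11 genes lower in Group 1, 5 were below the controls in Group 1, and 3 others were above them in Group 2. Acyp2, 1 of those 5, was below the controls in Group 2 as well. These counts share the Group 1 and Group 2 libraries with the comparison that picked the genes and are a description.

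The 94 genes called at 0.05 in the 6 against 5 were then read in the 6 libraries that change group. Of 47 genes higher in Group 1, 45 were also higher in Pac A6, E2 and G9 than in DMSO 12, Pac C3 and Pac F10, and of 47 lower, 39 were also lower, where 47.8% of all 11437 genes were higher in Group 1. In 24 of the 94 the ranges of these 3 against 3 libraries did not overlap in the same direction, against 4.98% of all genes in either direction. The differences were smaller, with a median log2 fold change of 1.65 in the 6 against 5 and 0.73 in the 3 against 3 for the 47 higher genes. For the 47 lower genes the medians were -4.64 and -0.99. The rest of the 94 had the opposite sign, among them Cyth3, Itgb5, Cbs, Abi2 and Brdt. The labels of these 6 libraries were moved with fold changes of the same libraries in view, so the counts are a description.

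**Figure D2:**
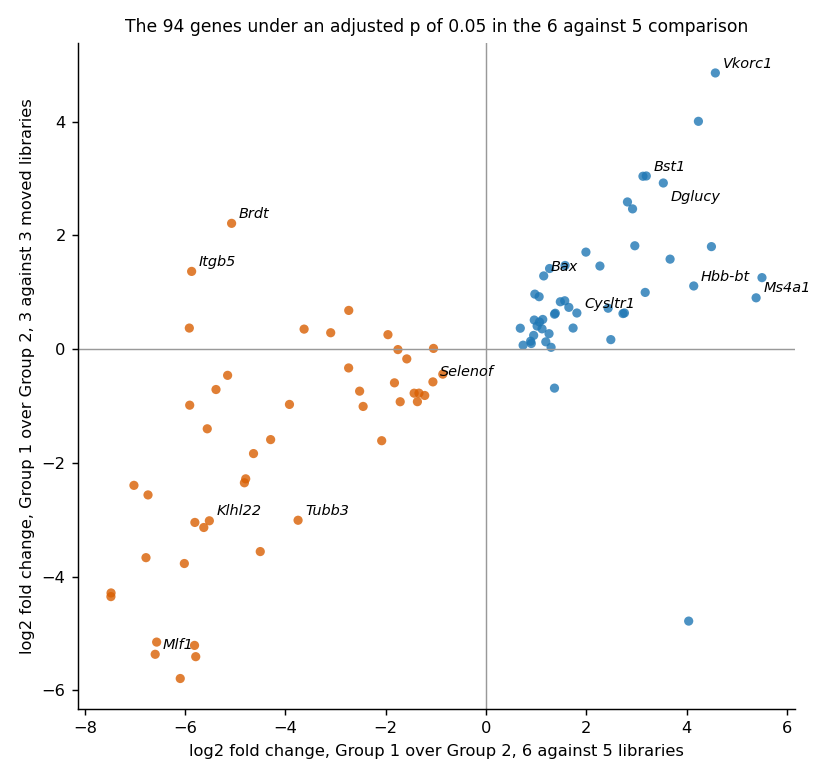
Log2 fold change, Group 1 minus Group 2, of the 94 genes with an adjusted p under 0.05 in the 6 against 5 libraries (horizontal axis) and of the same genes in the 3 against 3 libraries that share none with it (vertical axis). Each point is a gene, and 84 of the 94 lie on the same side of 0 on both axes.

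The 11 genes lower in Group 1 over 9 against 8 libraries held a set that was nearly silent in all 9 Group 1 libraries. Klhl22, an adaptor of a ubiquitin ligase (chr16:17759618-17793382), ran from 26.7 to 46.4 CPM in the DMSO control lines and from 0 to 2.08 CPM in Group 1. In Group 2 it was 35.8 CPM in Pac D7, 38.8 in E1 and 15.4 in C3, and at most 1.02 CPM in the other 5 libraries. The same 3 libraries held nearly all of the counts for Akr1e1, an aldo-keto reductase, for Acyp2, an acylphosphatase, for Rcan2, a regulator of calcineurin, and for Mlf1 and Zc2hc1a. Akr1e1 was 39.6, 92.4 and 71.0 CPM in Pac D7, E1 and C3, at most 0.661 CPM in the other Group 2 libraries and at most 2.08 CPM in Group 1, with a control median of 26.9 CPM. Acyp2 was 6.79, 20.1 and 5.13 CPM in these libraries, at most 0.378 CPM in the other Group 2 libraries and at most 0.762 CPM in Group 1, with control lines from 10.0 to 57.3 CPM. Rcan2 was 24.98, 3.78 and 12.0 CPM in Pac D7, E1 and C3 and at most 0.313 CPM in Group 1. Without Pac C3, D7 and E1, 18 genes were called over the remaining libraries, 15 of them higher in Group 1, 0 of these 6 genes were among them, and the 6 against 5 comparison, then 6 against 3, called 4. Fitted fold changes of these genes set a few libraries against values at or near 0, so none is given.

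Over the 47 genes lower in Group 1 in the 6 against 5 test, the highest of the 8 Group 2 libraries was Pac D7 for 15 genes, E1 for 13, D4 for 8, C11 for 5, C3 and F10 for 3 each, and DMSO 12 and Pac D10 for none (0). Gja1, the gap junction protein connexin 43, was 172 CPM in Pac E1, 26.3 in D7 and 13.7 in C3, the libraries that also held the set around Klhl22. It was at most 1.04 CPM in the other Group 2 libraries, 0.524 CPM in Group 1 and 0.375 CPM in the controls. Kynu, an enzyme of tryptophan breakdown, was 68.0 CPM in Pac D4 and had a Group 2 median of 1.23 CPM. Crtc2, a coactivator of CREB (chr3:90254163-90264125), was 27.4, 32.2, 21.4, 21.9 and 19.9 CPM in Pac C11, D4, D7, D10 and E1 and ran from 6.59 through 8.62 to 11.9 CPM in the 6 Group 1 libraries (log2 fold change -1.43 ± 0.280 SE, adjusted p = 0.0113, edgeR). Miga1, a mitochondrial fusion protein (chr3:152273849-152340407), ran from 1.57 through 4.07 to 7.22 CPM in the 6 Group 1 libraries and from 15.4 through 19.5 to 42.3 CPM in the 5 Group 2 libraries (log2 fold change -2.52 ± 0.492 SE, adjusted p = 0.0113, edgeR). The ranges of both overlapped in the 3 against 3 libraries.

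Of 27 p53 target genes, 19 passed the filter in the 9 against 8 fit, and 16 of them had a positive log2 fold change, with a median of 0.67 where the median of all genes was -0.10. Bax, Cdkn1a and Dglucy were among the 31 genes, which are 0.309% of all genes. In the 6 against 5, 7 of 21 were positive with a median of -0.18, where all genes lay at -0.14, and in the 3 against 3, 18 of 21 with a median of 1.29. Without Pac A6 and Pac G9, which leaves 1 against 3 libraries in the last comparison, the list's medians were 0.01, -0.12 and 0.01, against -0.09, -0.15 and -0.18 for all genes. Without all 6 libraries apart on the first principal component they were 0.40, 0.65 and 0.35, against 0.00, 0.03 and 0 for all genes, so the sign in the 6 against 5, then 6 against 2, depended on the libraries.

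Bax (ENSMUSG00000003873.11, chr7:45461697-45466898) did not depend on these 2 libraries. It ran from 144 through 184 to 237 CPM in the 6 Group 1 libraries and was 75.5, 81.0, 42.6, 97.2 and 118 CPM in Pac C11, D4, D7, D10 and E1 (log2 fold change 1.15 ± 0.236 SE, adjusted p = 0.0169, edgeR). Pac A6, E2 and G9 held 171, 168 and 289.8 CPM and DMSO 12, Pac C3 and Pac F10 held 117, 49.6 and 92.1 CPM, while the DMSO control lines ran from 114 through 149 to 199.7 CPM. Cdkn1a (chr17:29090976-29100727) was 66.4 CPM in Pac A6 and 237 CPM in Pac G9, but 3.25 to 16.5 CPM in the other 7 Group 1 libraries and 0 to 5.86 CPM in Group 2. Its log2 fold change was 2.06 ± 0.732 (SE) in the 6 against 5, which missed the threshold (adjusted p = 0.115, edgeR), and 6.37 in the 3 against 3. Ccng1, cyclin G1, was likewise 81.2 and 195 CPM in Pac A6 and G9 and 13.7 to 33.8 CPM in the other Group 1 libraries, with 5.99 to 23.3 CPM in Group 2. Mdm2, the ubiquitin ligase that degrades p53, was 52.3 CPM in Pac A6 and 140.5 CPM in Pac G9, against 15.2 to 33.4 CPM in the other 7 Group 1 libraries and 8.36 to 42.3 CPM in Group 2. Trp53 itself, the gene of p53, had a log2 fold change of -0.20 over 9 against 8.

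The promoter letters of some of these genes are shown because p53 acts on DNA. p53 binds DNA as a tetramer on pairs of a short, partly palindromic element known as the p53 decamer, and the letters of this element were searched on the RefSeq promoters of GRCm38.p6, from 250 bases before to 50 after each gene's start. Capitals mark the element. It was found in the windows of 9 of 21 p53 target genes with an entry (42.9%) and of 2582 of 27025 genes in all (9.55%). A pair of elements, the form that p53 binds, was found in 1 of 32 promoters of the list (3.12%) and in 0.0731% of all promoters searched.
Bax, chr7:45467080-45467109, minus strand, 201 bases before the start: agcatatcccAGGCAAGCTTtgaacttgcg
Ccng1, chr11:40755452-40755481, minus strand, 185 bases before the start: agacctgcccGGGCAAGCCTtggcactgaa
Cdkn1a, chr17:29090896-29090925, plus strand, 73 bases before the start: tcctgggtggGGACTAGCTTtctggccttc
Cdkn1a, chr17:29090918-29090947, plus strand, 51 bases before the start: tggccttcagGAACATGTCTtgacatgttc
The Dglucy window held no match, and Bst1 had no entry. A match is a description of letters and not a bound site.

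**Figure D3:**
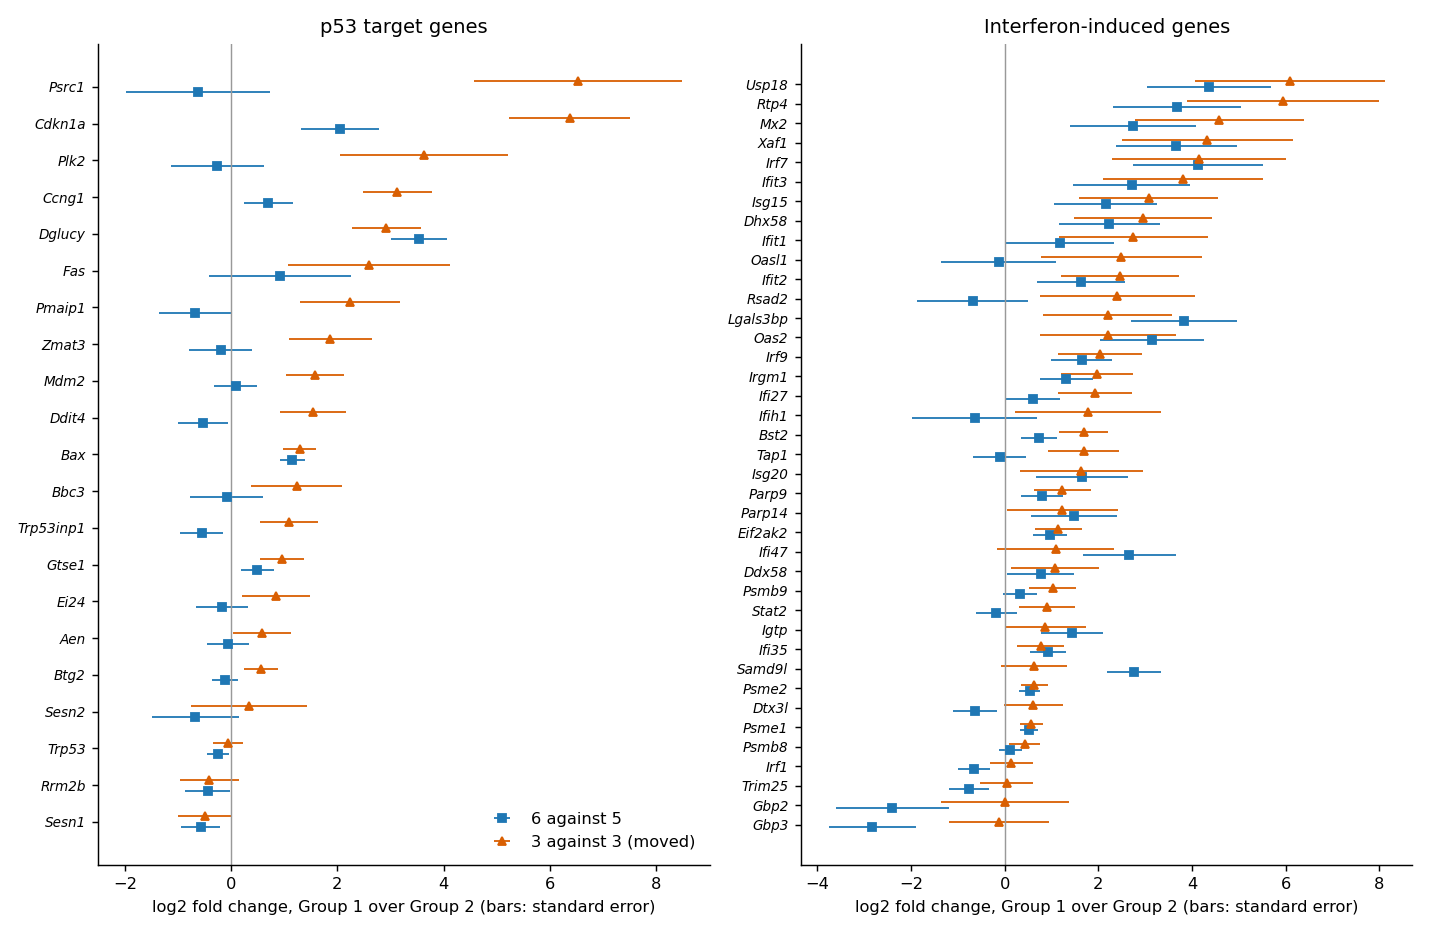
Log2 fold change, Group 1 over Group 2, of each p53 target gene (left) and interferon-induced gene (right) in the 6 against 5 libraries (squares) and the 3 against 3 libraries that change group (triangles), with standard errors as bars. Cdkn1a lies at 2.06 and 6.37 and Bax at 1.15 and 1.29, while most squares of the p53 panel lie near or below 0. Most interferon-induced genes lie above 0 in both comparisons, and 1 member of that list is not drawn.

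Interferons bind cell surface receptors and induce a broad set of antiviral genes. Of 50 interferon-induced genes 33 passed the filter over 9 against 8 libraries, 28 were positive and the median log2 fold change was 1.11. None (0) was among the 31 genes, which are 0.309% of all genes. The medians were 1.07 in the 6 against 5 (30 of 40 positive) and 1.66 in the 3 against 3 (39 of 40 positive). Irf7 was 192 and 91.8 CPM in Pac H1 and G9, and at most 6.29 CPM in the other libraries of both groups. Usp18, which shuts the interferon receptor down, was 212 and 127 CPM in these libraries and at most 3.95 CPM elsewhere in the groups. Without Pac H1 and Pac G9 the list's medians were -0.06, -0.01 and 0.08, against -0.08, -0.12 and -0.03 for all genes. Without the 6 libraries apart on the first principal component, with Pac H1 kept, they were 1.32, 1.99 and 0.68. Samd9l was the 1 of 40 members called in the 6 against 5 at 0.05 (log2 fold change 2.76 ± 0.574 SE, adjusted p = 0.0191, edgeR), where 0.822% of all genes were called. Samd9l ran from 38.9 through 75.9 to 230.2 CPM in the 6 Group 1 libraries and from 2.93 through 9.40 to 44.8 CPM in the 5 Group 2 libraries.

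**Figure D4:**
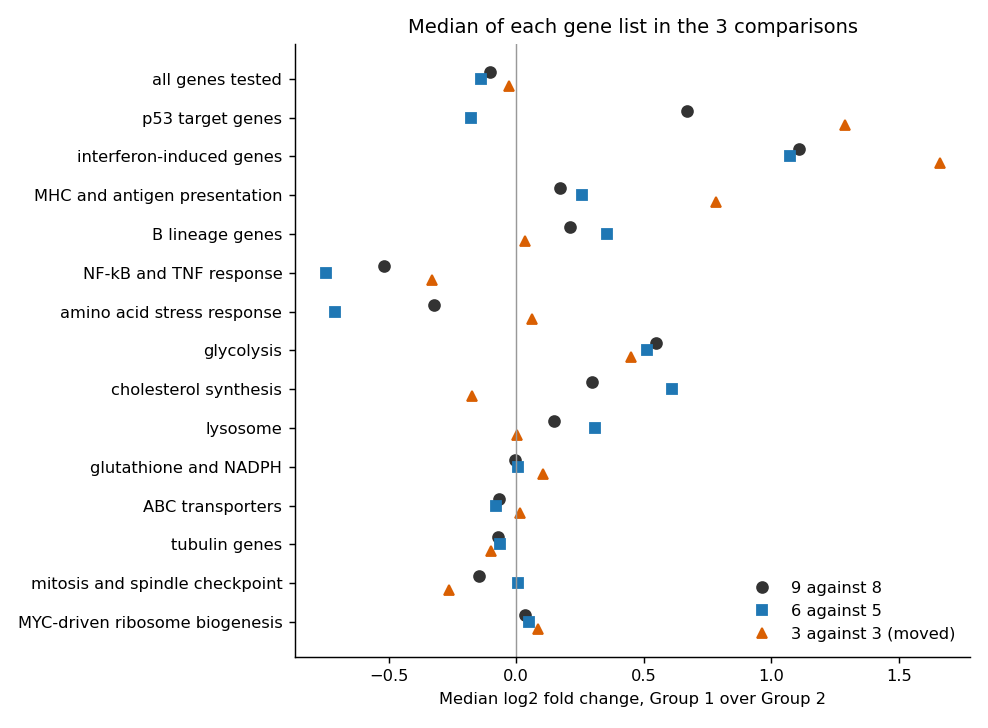
Median log2 fold change, Group 1 over Group 2, of 14 gene lists in the 9 against 8, 6 against 5 and 3 against 3 libraries, with the median of all genes tested. The interferon list lies near 1.1 in the first and second comparison, and the p53 list lies at 0.67, -0.18 and 1.29.

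NF-kB target genes lay lower in Group 1 by median. Of 20 that passed the filter, 4 were positive over 9 against 8 libraries, with a median of -0.52, and in the 6 against 5 the median was -0.75 with 5 of 25 positive. None (0) was called. Nfkbia, the inhibitor that NF-kB induces, was 102.5, 171, 371, 19.9 and 28.8 CPM in Pac C11, D4, D7, D10 and E1 and ran from 19.6 through 44.2 to 54.2 CPM in the 6 Group 1 libraries, which overlapped. In Pac A6, G9 and F10, which like Pac C11, D4 and D7 stood apart on the first principal component, it was 97.1, 86.7 and 199 CPM, and in Pac C3 it was 95.8 CPM. The difference did not pass the test (log2 fold change -1.90 ± 0.492 SE, adjusted p = 0.0534, edgeR). Without those 6 libraries the list's medians were 0.02 in the 9 against 8, 0.33 in the 6 against 5 and -0.52 in the 3 against 3. The pro-survival members of the BCL2 family that passed the filter, Bcl2 and Mcl1, were also lower in Group 1 by value, with a median of -0.66, and 0 of 2 were called. Mcl1 was 155, 199, 165 and 359 CPM in Pac C11, D4, D7 and F10 and 153 and 98.9 CPM in Pac A6 and G9. In the 11 libraries not apart on the first principal component it ran from 46.4 to 53.2 CPM in Group 2 and from 33.4 to 77.7 CPM in Group 1, which overlapped.

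Of 47 B lineage genes, 39 passed the filter over 9 against 8 libraries, 24 were positive with a median of 0.21, and the medians were 0.36 in the 6 against 5 and 0.04 in the 3 against 3. Without the 6 libraries apart on the first principal component they were 0.38, 0.62 and 0.37. Of the list, Bst1 and Vpreb3 were among the 31 genes (0.309% of all genes). Vpreb3 (chr10:75943057-75949657), a pre-B-cell protein that binds immunoglobulin chains in the endoplasmic reticulum, ran from 483 through 1445 to 2095 CPM in Group 1 and from 356 through 538 to 1040 CPM in Group 2 (6 against 5: log2 fold change 1.12 ± 0.291 SE, adjusted p = 0.0548, edgeR). In the 6 against 5 test, 4 of 42 members passed 0.05, all higher in Group 1, where 0.822% of all genes passed and 0.411% were higher. These were Bst1, Cd37, a tetraspanin of mature B cells, Btk, the kinase downstream of the B-cell receptor, and Ms4a1, which encodes CD20. Cd37 ran from 406 through 524 to 773 CPM in the 6 Group 1 libraries and from 139 through 222 to 300.3 CPM in the 5 Group 2 libraries (log2 fold change 1.30 ± 0.246 SE, adjusted p = 0.0111, edgeR). Over all 9 and 8 libraries its ranges overlapped, at 215 to 773 and 139 to 581 CPM, and its log2 fold change in the 3 against 3 was 0.03. Ms4a1 ran from 12.5 through 87.4 to 135 CPM in the 6 Group 1 libraries and was 1.04 to 3.54 CPM in the 5 Group 2 libraries. It did not keep to the groups in the libraries that change group, with 3.13, 282 and 5.27 CPM in Pac A6, E2 and G9 and 142, 0 and 13.2 CPM in DMSO 12, Pac C3 and Pac F10. Rag1, a recombinase of early lymphocytes, had a negative value (log2 fold change -2.98, adjusted p = 0.0836, edgeR).

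Genes linked to paclitaxel resistance came from a list of the study, chosen by it from the literature. Of 108 such genes found, 107 passed the filter over 9 against 8 libraries, 45 were positive, the median was -0.11, and 3 were among the 31 genes (0.309% of all genes), Bax and G6pdx higher and Tubb3 lower in Group 1. G6pdx (chrX:74409483-74429194), the first enzyme of the pentose phosphate pathway and a source of NADPH, ran from 121 through 128 to 163 CPM in the 6 Group 1 libraries and was 48.2, 27.2, 42.6, 74.2 and 63.1 CPM in Pac C11, D4, D7, D10 and E1 (log2 fold change 1.38 ± 0.255 SE, adjusted p = 0.0105, edgeR). In the libraries that change group it overlapped, with 99.5 CPM in DMSO 12 and 68.6 CPM in Pac A6. Tubb3 (chr8:123411424-123422015), the class III beta-tubulin of neurons, was 24.2, 2.93, 14.7, 38.7 and 32.4 CPM in the 5 Group 2 libraries and at most 2.95 CPM in the 6 Group 1 libraries, with control lines at 0.325 to 3.48 CPM (log2 fold change -3.75 ± 0.813 SE, adjusted p = 0.0269, edgeR). DMSO 12, Pac C3 and Pac F10 held 5.10, 74.4 and 3.47 CPM of Tubb3, and Pac E2 of Group 1 held 8.13 CPM. Of 13 tubulin genes fitted, Tubb3 was the 1 among the 31, and the tubulin list's median was -0.07.

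Gstm1, a glutathione transferase, ran from 1.57 through 10.5 to 29.5 CPM in the 6 Group 1 libraries and from 31.9 through 56.7 to 77.6 CPM in the 5 Group 2 libraries. These did not overlap, as for 2.01% of all genes, but the difference did not pass the test (log2 fold change -2.22 ± 0.644 SE, adjusted p = 0.0737, edgeR). In the libraries that change group Gstm1 overlapped, with 2.82, 12.3 and 63.0 CPM in Pac A6, E2 and G9 against 20.4, 34.2 and 45.6 CPM in DMSO 12, Pac C3 and Pac F10. The DMSO control lines had a median of 1.76 CPM and a highest value of 9.97 CPM. Abcb1b, the paclitaxel efflux pump, was 41.0 through 82.4 to 249.96 CPM in Group 1 and 59.2 through 82.3 to 105 CPM in Group 2, against 16.2 through 32.0 to 45.5 CPM in the DMSO control lines. Its log2 fold change in the 6 against 5 was -0.08 ± 0.307 (SE, adjusted p = 0.909, edgeR). Of 20 ABC transporters fitted, 10 were positive, with a median of -0.07 beside -0.10 for all genes.

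Gene levels were also summarised by chromosome. The level of a chromosome was taken as the median log2 ratio of its genes to the DMSO control mean, centred on the library's median. No DNA was measured. On chromosome 3, with 472 genes, the 9 Group 1 libraries ran from -0.05 to 0.06, as did the DMSO control lines at -0.05 to 0.07. The 8 Group 2 libraries were higher, at 0.49 in DMSO 12, 0.12 in Pac C3, 0.08 in C11, 0.35 in D4, 0.28 in D7, 0.47 in D10, 0.48 in E1 and 0.30 in F10, with no overlap. The difference was -0.31 in the 6 against 5 and -0.31 in the 3 against 3. An exact two-sided permutation test over the 6 against 5 libraries gave p = 0.00433, the smallest this design allows, and 0.0866 after adjustment over 20 chromosomes. Chromosomes 9, 14 and X had the same adjusted p, with differences of -0.03, 0.17 and 0.36 in the 6 against 5 and of -0.04, 0.18 and 0.04 in the 3 against 3, so that 0 chromosomes passed 0.05. The pattern was seen before it was tested. In windows of 20 Mb along chromosome 3, over the 9 against 8 libraries, the difference was negative in every one, from -0.19 to -0.47. Group 2 had mean levels of 0.14 to 0.41 in all windows but the first, of 22 genes. There Group 2 lay at -0.01 and Group 1 at -0.20, with the controls at 0.03. Selenof, Crtc2 and Miga1 lie on this chromosome. In the 6 against 5 test, 8 of its 561 genes were called at 0.05, all lower in Group 1, where 0.822% of all genes were called and 0.411% were lower.

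Chromosome 6 split Group 1. Pac A6 was at 0.43, C1 at 0.41, G9 at 0.39, H3 at 0.49 and H8 at 0.51, and the other 4 Group 1 libraries and all 8 Group 2 libraries ran from -0.15 to 0.07 (6 against 5, exact two-sided permutation test, p = 0.0519, 0.208 after adjustment over 20 chromosomes). On chromosome 14, DMSO 12 was at -0.77, Pac G9 at -0.41, D4 at -0.35 and E1 at -0.25. On chromosome X, where Cysltr1, G6pdx and Btk lie, Pac D4 was at -0.81, F10 at -0.48, C11 at -0.32, D7 at -0.22 and E1 at -0.12 in Group 2, and Pac A6 at -0.27 and G9 at -0.20 in Group 1, where DMSO control lines lay from -0.24 to 0.10 and the other libraries of both groups from -0.06 to 0.14. The 6 lowest of the 17 were the 6 libraries apart on the first principal component, and DMSO 11, which lay with those, was the lowest control line. Without them Group 2 ran from -0.12 to 0.04 and Group 1 from -0.03 to 0.14, which overlapped. On chromosome 19 all 9 Group 1 libraries lay from -0.62 to -0.45 and the Group 2 libraries from -0.56 to -0.14, where DMSO control lines lay from -0.04 to 0.13 and DMSO 12 at -0.53.

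**Figure D5:**
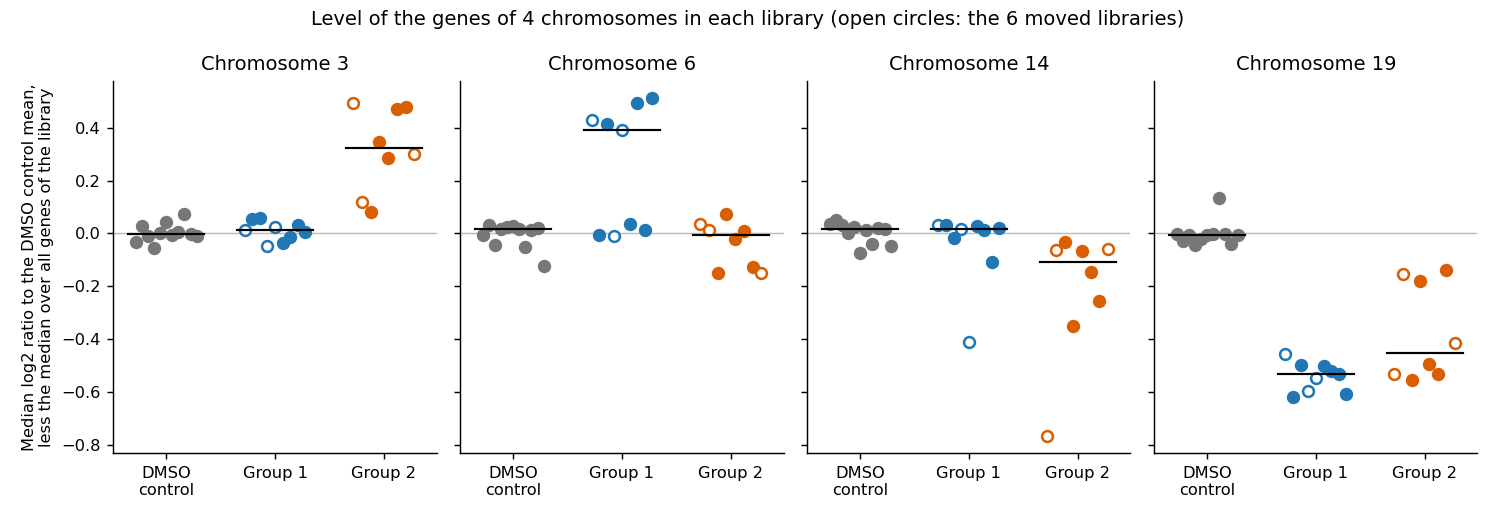
Level of chromosomes 3, 6, 14 and 19 in each library, as the median log2 ratio of the chromosome's genes to the DMSO control mean, centred on the library's median. Points are libraries of the DMSO control, Group 1 and Group 2, black lines are medians, and the open circles are the 6 libraries that change group. On chromosome 3 all 8 Group 2 libraries, from 0.08 to 0.49, lie above all 9 Group 1 libraries.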

How the data were processed

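One 3′-end digital gene expression library was made from each of 30 lines, with a barcode and a molecular identifier per cDNA, in 2 subpools of 15. Which line was in which subpool and whether identifiers were collapsed are not given in the sources used here. The authors aligned reads to GRCm38 with STAR 2.5.1b and the gencode M25 annotation, and deposited whole-number counts per gene for 55401 genes with no normalization or filter. Symbols and positions were taken from gencode M21 by identifier for 55141 genes, with positions only where the version matched.

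The counts were normalized (TMM), filtered with filterByExpr and fitted with edgeR 4.0.16 (limma 3.58.1, R 4.3.3). One fit held Group 1 (9 libraries), Group 2 (8) and DMSO control (11), without Pac H9 and Parental. A second split each group into libraries with the same group under either labelling and libraries that change it (6, 3, 5 and 3). The quasi-likelihood F test was adjusted by Benjamini-Hochberg over all genes tested, at 0.01, the threshold of the study, and at 0.05. CPM used TMM-scaled totals. Each ± is an SE of the fit. Lines are single cultures, so p-values measure the spread between lines. Depth limits low genes: at 3 counts a gene is near its floor, and intervals cover counting error and spread only. Genes named were the 15 with the lowest p on each side of the 6 against 5, genes of the study, and from each list the called genes and the 2 with the largest change of like sign. The other genes given, among them Pdcl, those nearly silent in Group 1 and the p53, interferon and B lineage genes outside this rule, and the chromosome levels, were chosen after their values were seen. The members, lists and rules were chosen with earlier results of these data known. Alternatives were DESeq2 1.42.0, the likelihood ratio test of edgeR, other normalization and filters, thinned counts, a depth covariate and libraries left out. Scripts were tested on simulated data. At 0.01 the simulated 6 against 5 found 8 of 108 genes changed by a log2 of 1 and 40 of 88 changed by 2. For the 9 against 8 these were 33 of 110 and 72 of 85. False calls numbered 0 in the 6 against 5 and 5 in the 9 against 8. A gene that was not called can therefore still differ. Promoters were from RefSeq, GRCm38.p6. Some genes of the lists and calls are not reported here.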

Additional observations from a re-analysis of the deposited data

Results flagged for a closer look

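In 154 sets of values, each of 1 gene, 1 chromosome or the total counts in 1 group, 16 had a highest or lowest library set apart from the rest by Dixon's 95% criterion, where chance gives about 1 in 20. For genes the criterion was applied to log2 of CPM plus 1, and CPM is printed. In Group 1, Pac G9 was the library apart for Ldha (1462 CPM, lowest), Vpreb3 (483 CPM, lowest), Fdft1 (11.47 CPM, lowest), Cacna1e (3.10 CPM, highest) and the level of chromosome 14 (-0.41, lowest). Pac A6 was the lowest for Cd37 (215 CPM), Pac C1 for Selenof (45.9 CPM), and Pac B2 was the highest for the level of chromosome 5 (0.46).

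In Group 2, Pac D10 was the lowest for Bfsp2 (0 CPM) and the highest for Fos (37.6 CPM). Pac C3 was the lowest for Tedc1 (0 CPM) and the highest for Gm36120 (8.55 CPM). Pac D4 was the highest for Kynu (68.0 CPM), Pac E1 for Selenof (259 CPM) and Pac F10 for the level of chromosome 9 (-0.066). DMSO 12 was the lowest for the level of chromosome 14 (-0.77).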

How the results depend on the processing

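The count of 31 genes over 9 against 8 libraries was 28 with RLE factors and 29 with a stricter filter, but 120 by the likelihood ratio test, 119 by DESeq2, 59 with every gene of at least 1 count, 2 with the 17 libraries fitted alone, 8 after thinning to the smallest total, 53 with depth as a covariate, 63 without the library titled DMSO 12, 0 by the deposited labels and 131 at 0.05. Leaving out 1 library gave 16 to 63, with 16 without Pac C3, D7, H3 or H8, 18 without E2, 19 without H1, 20 without H4 and 58 without D10. In the 6 against 5 the 6 genes became 108 by the likelihood ratio test, 99 by DESeq2, 37 with every gene of at least 1 count, 2 with the 11 libraries alone and 94 at 0.05, and 9, 6, 6 and 8 with RLE factors, the stricter filter, thinning and the covariate. Leaving out 1 library gave 4 to 23, with 23 without Pac D10 and 11 without C11. A test of the difference between the 6 against 5 and the 3 against 3, not independent of how the labels were moved, called 0 genes (edgeR's quasi-likelihood test, 696 at an unadjusted p under 0.05), 1 by the likelihood ratio test and 0 by DESeq2. The 84 genes of like sign became 85 with RLE factors and by DESeq2, and 50 of 56 after thinning. The chromosome 3 difference of -0.31 ran from -0.38 to -0.28 with 1 library left out, and was -0.37 for genes of at least 10 CPM and -0.34 after thinning. Of 62 named genes fitted both ways, 4 changed sign by the deposited labels, Cdkn1a to -2.20 and, not among the 31, Abcb1b, Cenpa and H2-DMa. Of those that kept their sign, Dglucy went from 3.20 to 0.07 by the deposited labels, Bst1 from 3.06 to 0.41 and Bax from 1.18 to 0.28. Bfsp2 went from 2.69 to 0.51, while Cysltr1 went from 1.53 to 1.43. Over all named genes and alternatives of the 6 against 5, 1137 values kept their direction and side of the threshold, 100 came to pass it and 15 no longer passed it. A further 6 values, of Abcb1b, Cenpa and, without Pac H1, Slfn8 and Xaf1, changed sign with 1 library left out, none past the threshold. In the 9 against 8, 1551 values moved by less than the spread between libraries, 22 by more, and 1 called value, Cdkn1a, changed sign. The causes were not tested. No paired analysis was possible because the labels give no number that ties a line of one group to a line of the other.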

Other observations

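Other lists are given by their counts and medians. Of 18 glycolysis genes that passed the filter over 9 against 8 libraries, 15 were positive with a median log2 fold change of 0.55, and the medians were 0.51 in the 6 against 5 and 0.45 in the 3 against 3, but 0 genes were called. Ldha, lactate dehydrogenase A, was 1427 to 1780.5 CPM in Pac C11, D4, D7 and F10 and 1462 CPM in Pac G9, but 10987 and 9854 CPM in Pac D10 and E1. Without the 6 libraries that stood apart on the first principal component the glycolysis medians were 0.10, -0.29 and 0.03. The cholesterol synthesis list had 19 of 23 positive with a median of 0.30, and 0.61 in the 6 against 5, but -0.17 in the 3 against 3. Of 25 amino acid stress genes, 6 were positive with a median of -0.32, which was -0.71 in the 6 against 5 and 0.06 in the 3 against 3. Without the same 6 libraries the medians were 0.17, 0.39 and -0.11 for cholesterol synthesis and 0.05, 0.04 and -0.14 for amino acid stress. Lysosome genes had medians of 0.15, 0.31 and 0.00, genes of mitosis and the spindle checkpoint -0.15, 0.01 and -0.26, and genes of MYC-driven ribosome biogenesis 0.03, 0.05 and 0.09, with 0 called in each. MHC and antigen presentation genes had medians of 0.17, 0.26 and 0.78. The median over all genes tested was -0.10, -0.14 and -0.03.

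The libraries put in no group were Pac H9 and Parental. Bst1 was 55.2 CPM in Pac H9 and 23.6 CPM in Parental, Dglucy was 38.0 and 29.5 CPM, Bax was 169 and 160.1 CPM and Cysltr1 was 200 and 329 CPM. Abcb1b was 26.2 CPM in Pac H9 and 29.5 CPM in Parental, within the range of the DMSO control lines. Klhl22 was 28.96 and 24.8 CPM, Acyp2 was 3.62 and 65.0 CPM, and Akr1e1 was 0 and 15.95 CPM. The level of chromosome 19 was -0.26 in Pac H9 and -0.11 in Parental, and that of chromosome 9 was -0.21 and 0.22. Chromosome 9 was at -0.30 to -0.07 in all 17 libraries of the groups, and at -0.25 to -0.20 in DMSO 1, 2, 5, 7 and 9 of the DMSO control, where the other control lines lay at -0.01 to 0.32.

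The share of counts from mitochondrial genes had medians of 4.04% in the DMSO control, 2.90% in Group 1 and 2.94% in Group 2, with ranges of 2.18% to 12.4%, 1.81% to 4.35% and 1.34% to 11.9%. The highest shares were those of DMSO 11 (12.4%), Pac D4 (11.9%) and Pac C11 (10.1%), which all stood apart on the first principal component, and the other libraries of Group 2 lay from 1.34% to 3.84%. Over the 12 mitochondrial genes tested, the median log2 fold change was -0.74 in the 9 against 8, -0.71 in the 6 against 5 and -0.71 in the 3 against 3, lower than that of any other chromosome in each. The part of this share in the differences between the groups was not tested.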
